A study of Mus musculus with 9 samples.

Results

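The genes examined are 10 genes of brain endothelium, the cells that line the brain's blood vessels and form the blood-brain barrier. The rule lists them by name, as known genes of these cells, and all 10 (Slc2a1, Cldn5, Mfsd2a, Flt1, Slco1a4, Pecam1, Abcb1a, Cdh5, Tek and Kdr) were found among the 22192 genes of the table. Each had a mean of at least 1 TPM (a library's share of transcripts from a gene, scaled by the gene's length) over the libraries and is thus one of the 13301 genes tested.

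RNA sequencing was done on 9 brain libraries of KM mice, an outbred stock, all labelled male. Young mice of 5 months received physiological saline, aged mice of 18 months received the same saline, and a further set of aged mice of 18 months received 200 mg/kg GRP-E1F2, a polysaccharide of ginseng root. All were dosed by mouth every 2 days for 4 weeks, and no group carried an altered allele. Each group had 3 libraries, which the labels call parallel samples without saying that they came from separate animals, so a p-value here reflects no more than how far these libraries differ, which may be technical.

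In the brain, endothelial cells are sealed to each other by tight junctions and hold few vesicles, so that most solutes cross only through transporters. Glucose, lactate, amino acids and lipids are carried in by dedicated carriers, and efflux pumps return many foreign compounds to the blood. Astrocytes, pericytes and neurons keep the endothelium in this state through Wnt, vascular endothelial growth factor (VEGF) and angiopoietin signals, and the barrier is known to become leakier with age in some brain regions.

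Some features of the libraries bear on every value given here. In each group, 1 library (replicate 3 of the young, 2 of the aged saline and 3 of the aged GRP-E1F2 group) lay between the other pair at 89.2% to 91.8% of the genes at which that pair differed by at least 1.3-fold, against 19.2% to 30.5% for the other 6 libraries. Among the 10 endothelial genes it lay between the others at 6 genes in the young, 6 in the aged saline and 10 in the GRP-E1F2 group, so the calls are also given without these 3 libraries. The tissue is labelled brain while the extraction protocol speaks of retina: 5 markers of oligodendrocytes, cells that the mouse retina lacks, summed to 5238 to 9213 TPM. Of the retinal markers, Rcvrn, Crx and Prph2 had group means of at most 1.02 TPM. Sag was 0.982, 0.846 and 2.50 TPM and Rlbp1 9.26, 13.5 and 16.4 TPM in the young, aged saline and aged GRP-E1F2 means. The mice are labelled male, yet 4 genes of the Y chromosome (Uty, Kdm5d, Ddx3y and Eif2s3y) reached at most 0.174 TPM in any library. The summed level of 6 cerebellar neuron markers was 2736 to 3998 TPM in the young, 1589 to 1984 TPM in the aged saline and 21.2 to 32.8 TPM in the aged GRP-E1F2 libraries. The part of this difference in the results on the aged GRP-E1F2 group was not tested. In whole tissue, fewer cells of a type and less RNA per cell cannot be told apart.

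All 10 genes were detected in all 9 libraries, and their summed level was 198 to 202 TPM in the young, 157 to 174 TPM in the aged saline and 163 to 164 TPM in the aged GRP-E1F2 libraries. Slc2a1 and Cldn5 were the most abundant in every group on the TPM scale. In the young group Slc2a1 (75.8 ± 0.948 TPM, SD, n = 3) stood above Cldn5 (61.0 ± 3.22), followed by Mfsd2a (15.4 ± 0.356), Flt1 (14.1 ± 1.07), Slco1a4 (9.95 ± 0.737), Pecam1 (7.41 ± 0.115), Abcb1a (6.90 ± 0.536), Cdh5 (4.43 ± 0.252), Tek (2.79 ± 0.160) and Kdr (2.52 ± 0.0849). Of the neighbours in this order, only Pecam1 and Abcb1a overlapped between young libraries. In the aged saline group Mfsd2a lay below Flt1 and Slco1a4, the ranges of Flt1 and Slco1a4 and those of Slco1a4 and Mfsd2a overlapped, and so did those of Slc2a1 and Cldn5. In the aged GRP-E1F2 group the neighbours Mfsd2a and Flt1, Flt1 and Slco1a4, Pecam1 and Abcb1a, and Tek and Kdr overlapped.

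**Figure D1:**
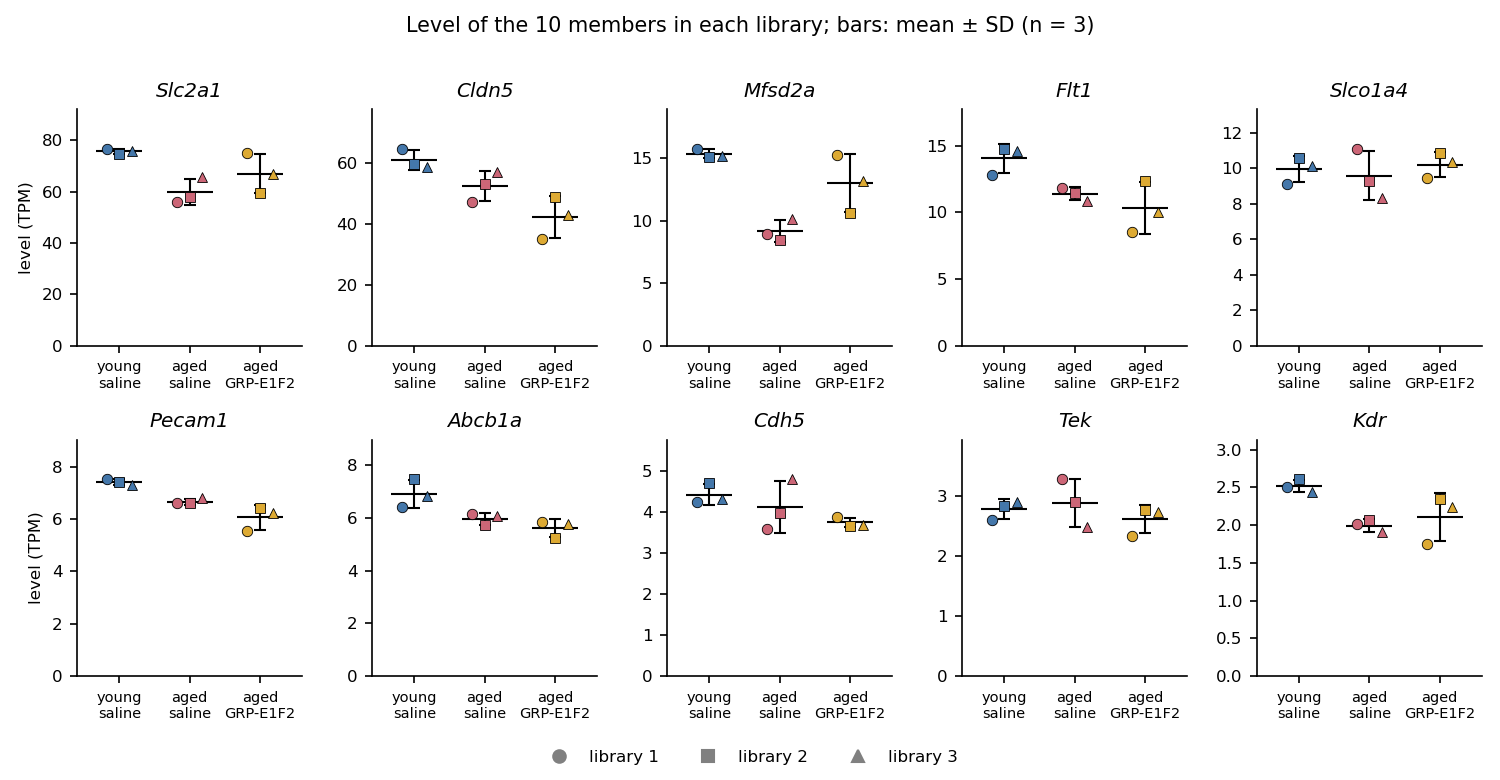
Level of each of the 10 endothelial genes in TPM (vertical axes, each starting at 0) in the 3 groups, with 1 point per library and bars for the mean ± SD of each group (n = 3). Mfsd2a lay between 8.46 and 10.1 TPM in the aged saline libraries, below all 3 young libraries (15.1 to 15.8) and all 3 aged GRP-E1F2 libraries (10.6 to 15.3).

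The nutrient carriers Slc2a1 and Mfsd2a were the members that fell with age, and Mfsd2a was the member that rose with GRP-E1F2. Slc2a1 (NCBI gene 20525, chr4:119108745-119137330 of GRCm38.p6, the build also called mm10) encodes GLUT1, the glucose transporter of the barrier. Its level was 76.7, 74.8 and 75.9 TPM in the young libraries, 56.0, 57.8 and 65.7 TPM in the aged saline libraries, and 75.0, 59.5 and 66.8 TPM in the aged GRP-E1F2 libraries. The aged saline libraries were all below the young ones, while the GRP-E1F2 libraries overlapped both groups, their replicate 1 reaching the young range. Slc2a1 fell by 0.34 with age on the log2(TPM + 1) scale (SE 0.0892, adjusted p = 0.0343 by limma with Benjamini-Hochberg adjustment over all tested genes), to 78.9% of the young mean. The difference of aged GRP-E1F2 from aged saline was 0.16 (95% interval -0.04 to 0.36, adjusted p = 0.239), and that from young was -0.18 (adjusted p = 0.126).

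Mfsd2a (NCBI gene 76574, chr4:122946850-122961194) encodes a carrier of lysophosphatidylcholine that brings docosahexaenoic acid into the brain and restrains vesicle transport through the endothelium. Its level was 15.8, 15.1 and 15.2 TPM in the young, 8.98, 8.46 and 10.1 TPM in the aged saline, and 15.3, 10.6 and 13.2 TPM in the aged GRP-E1F2 libraries. All aged saline libraries were below all others, and the GRP-E1F2 group was the most spread, its replicate 1 within the young range. With age Mfsd2a fell by 0.69 on the log2(TPM + 1) scale (SE 0.118, adjusted p = 0.00926), to 59.8% of the young mean. With GRP-E1F2 it rose by 0.45 over aged saline (SE 0.118, adjusted p = 0.0266), to 142% of the aged saline mean. Its difference between aged GRP-E1F2 and young was -0.24 (95% interval -0.50 to 0.03, adjusted p = 0.130). These comparisons share the aged saline libraries, so the fall and the rise are not independent of each other.

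Without the 3 in-between libraries, with 2 libraries per group, Mfsd2a differed by -0.64 with age (adjusted p = 0.384) and by 0.38 with GRP-E1F2 (adjusted p = 0.431), and Slc2a1 by -0.32 with age (adjusted p = 0.497). That fit called 3 genes in all with age and 248 with GRP-E1F2. Over all alternatives computed, the adjusted p lay between 0.00386 and 0.384 for Mfsd2a with age, between 0.00451 and 0.431 for Mfsd2a with GRP-E1F2, and between 0.0193 and 0.497 for Slc2a1 with age. Leaving out aged saline 2 alone ended the Mfsd2a call with age (adjusted p = 0.0515). Its call with GRP-E1F2 ended without aged saline 1 (0.0551) or 2 (0.105), without GRP-E1F2 1 (0.0570) or 3 (0.0925), and in a fit of the 2 groups alone (0.0657), all as adjusted p. The Slc2a1 call ended without any 1 of the 3 young libraries, aged saline 1 or 2 or GRP-E1F2 3 (adjusted p between 0.0626 and 0.123), and with median-of-ratios scaling (0.0584). Without GRP-E1F2 1, both genes were below young in the aged GRP-E1F2 group (Slc2a1 -0.26, adjusted p = 0.0307, and Mfsd2a -0.35, adjusted p = 0.0259).

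Slc2a1 is also made outside the endothelium, in choroid plexus epithelium among others. The summed level of 7 choroid plexus markers, of which 5 (Ttr among them) were above 0 in every library, was 2307, 2255 and 2249.7 TPM in the young, 159, 791 and 1250.2 TPM in the aged saline, and 964, 21.0 and 491 TPM in the aged GRP-E1F2 libraries. Ttr made up most of it in every library, with 951, 15.6 and 481 TPM in the GRP-E1F2 libraries. Folr1, Kl, Kcne2 and Slc4a5 were also lowest in GRP-E1F2 2. Clic6 (2.53, 3.01 and 3.00 TPM) and Aqp1 (1.66, 1.95 and 2.15 TPM) were instead lowest in GRP-E1F2 1. Within both aged groups, Slc2a1 ordered the libraries as the choroid plexus sum did, and within the GRP-E1F2 group Mfsd2a did so too. This order is not particular to choroid plexus. The sum of 5 red blood cell markers had it too. That sum was 1680, 2366 and 2716 TPM in the aged saline and 2770, 1085 and 1922 TPM in the GRP-E1F2 libraries. The in-between library lay between the other pair at 91.5% (aged saline) and 91.8% (GRP-E1F2) of differing genes, so many genes share an order. In the same order of libraries, Mfsd2a stood at 8.98, 8.46 and 10.1 TPM in the aged saline and 15.3, 10.6 and 13.2 TPM in the GRP-E1F2 group. The part of choroid plexus tissue in these results was not tested.

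The stretches just upstream of the starts of both genes are shown with that of Cldn5, the most abundant junction gene, because the carriers held the calls with age and with GRP-E1F2, and Cldn5 the largest difference between aged GRP-E1F2 and young. The sequences are RefSeq's, on GRCm38.p6, each printed 5′ to 3′ on the strand of its gene and ending at the base before the start. Slc2a1 is chr4:119108495-119108744 (plus strand), Mfsd2a chr4:122961195-122961438 (minus strand) and Cldn5 chr16:18776597-18776846 (plus strand). Capitals mark matches, on either strand, to GGGCGG (bound by KLF and SP factors, here read as CCGCCC) and to TCAAAG (bound by the Wnt effectors TCF and LEF, here read as CTTTGA).
Slc2a1: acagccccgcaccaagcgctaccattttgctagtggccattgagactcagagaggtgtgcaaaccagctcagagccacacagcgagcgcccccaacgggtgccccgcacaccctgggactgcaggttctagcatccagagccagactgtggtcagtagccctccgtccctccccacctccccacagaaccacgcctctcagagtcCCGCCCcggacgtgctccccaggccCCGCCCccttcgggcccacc
Mfsd2a: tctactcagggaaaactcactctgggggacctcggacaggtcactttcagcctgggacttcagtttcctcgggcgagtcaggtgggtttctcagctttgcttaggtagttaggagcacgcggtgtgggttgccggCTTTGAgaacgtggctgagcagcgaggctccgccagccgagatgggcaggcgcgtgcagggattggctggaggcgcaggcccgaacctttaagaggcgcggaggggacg
Cldn5: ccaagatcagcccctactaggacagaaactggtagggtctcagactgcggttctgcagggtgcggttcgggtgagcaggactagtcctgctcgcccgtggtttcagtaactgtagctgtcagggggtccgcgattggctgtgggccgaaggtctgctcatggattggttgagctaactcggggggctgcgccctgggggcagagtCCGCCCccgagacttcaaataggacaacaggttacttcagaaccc

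The RefSeq table held promoter windows, from 250 bases before to 50 bases after the start, for 8 of the 10 members. It counts from the start of a transcript, which is the outer edge of the gene for Slc2a1, Cldn5 and Abcb1a but lies 6 bases inside it for Mfsd2a, 64 for Slco1a4, 203 for Tek, 427 for Flt1 and 617 for Kdr, so that the windows of Flt1 and Kdr lie wholly within the gene. GGGCGG was in 4 of the 8 windows (Slc2a1, Cldn5, Flt1 and Kdr), and in 35.7% of all 32851 windows of the table. TCAAAG was in those of Mfsd2a and Abcb1a, and in 16.0% of all windows. Of the letters bound by endothelial factor families, the ETS word CAGGAAG was in 0 of the 8 (13.3% of all windows), the forkhead word TAAACA in 2 (Abcb1a and Slco1a4, 13.4%), the SOX word ACAATG in Slco1a4 (12.6%) and the GATA word AGATAA in Tek (11.2%). The letters TATAAA, the word of the TATA box, were in 2 (Flt1 and Slc2a1, 13.6%). At Slc2a1 they were not within the 250 bases before the start printed above, and the Flt1 window lies within the gene. Neither match is therefore called a TATA box. GC content ran from 40.3% at Abcb1a to 70.7% at Flt1, against a median of 52.7% over all windows. No word searched was common to the promoters of Slc2a1 and Mfsd2a. A match describes only the letters in the window.

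The junction and adhesion genes showed smaller differences with age. Cldn5 (NCBI gene 12741, chr16:18776847-18778262) encodes claudin-5, the main tight junction strand protein of brain endothelium. It stood at 64.6, 59.5 and 58.7 TPM in the young, 47.1, 53.1 and 57.1 TPM in the aged saline, and 35.0, 48.8 and 42.8 TPM in the aged GRP-E1F2 libraries. Young and aged saline did not overlap, while the highest GRP-E1F2 library was above the lowest aged saline library. Between aged GRP-E1F2 and young, Cldn5 fell by 0.53 (SE 0.116, adjusted p = 0.00524), to 69.3% of the young mean. Its differences were -0.22 for aged saline against young (95% interval -0.48 to 0.05, adjusted p = 0.221) and -0.32 for GRP-E1F2 against aged saline (95% interval -0.58 to -0.05, adjusted p = 0.0863). The latter passed the threshold when GRP-E1F2 2 was left out (-0.42, adjusted p = 0.0274). The fall against young passed under every alternative computed but that of 2 libraries per group (-0.57, adjusted p = 0.0838).

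Pecam1 (NCBI gene 18613, chr11:106654213-106715281), which encodes the adhesion molecule CD31, stood at 7.53, 7.40 and 7.30 TPM in the young, 6.60, 6.60 and 6.79 TPM in the aged saline, and 5.53, 6.44 and 6.22 TPM in the aged GRP-E1F2 libraries. The 3 groups did not overlap. Pecam1 fell by 0.25 between aged GRP-E1F2 and young (SE 0.0693, adjusted p = 0.0147), while each of the steps between neighbouring groups missed the threshold (-0.13, adjusted p = 0.204, and -0.12, adjusted p = 0.253). The call ended with median-of-ratios scaling (adjusted p = 0.0588), with quantile normalization (0.141) and with 2 libraries per group (0.219), the adjusted p running from 0.0107 to 0.219 over all alternatives.

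Cdh5 (NCBI gene 12562, chr8:104101613-104144504) encodes VE-cadherin of the adherens junction. It stood at 4.25, 4.72 and 4.32 TPM in the young, 3.58, 3.99 and 4.81 TPM in the aged saline, and 3.88, 3.67 and 3.70 TPM in the aged GRP-E1F2 libraries. The aged saline libraries spanned the ranges of both other groups. No comparison passed: -0.09 with age (95% interval -0.30 to 0.13, adjusted p = 0.548), -0.10 with GRP-E1F2 (adjusted p = 0.476) and -0.19 between GRP-E1F2 and young (adjusted p = 0.126).

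Flt1, Kdr and Tek encode the receptors that receive VEGF and angiopoietin signals. Flt1 (NCBI gene 14254, chr5:147561604-147726438) encodes VEGF receptor 1, which binds VEGF tightly and signals weakly. It stood at 12.8, 14.8 and 14.6 TPM in the young, 11.8, 11.5 and 10.9 TPM in the aged saline, and 8.56, 12.4 and 10.1 TPM in the aged GRP-E1F2 libraries. Every library of the aged groups was below every young library, and the aged groups overlapped. Flt1 fell by 0.42 between aged GRP-E1F2 and young (SE 0.116, adjusted p = 0.0155), and differed by -0.28 with age (adjusted p = 0.124) and by -0.14 with GRP-E1F2 (adjusted p = 0.422). The difference with age passed the threshold in a fit of only the 2 groups (adjusted p = 0.0494) and without GRP-E1F2 2 (0.0492). The fall missed the threshold without young 2 (adjusted p = 0.0555), young 3 (0.0560) or GRP-E1F2 3 (0.0507), with quantile normalization (0.0555), and with 2 libraries per group (0.217).

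Kdr (NCBI gene 16542, chr5:75932827-75979072) encodes VEGF receptor 2, the main signalling receptor. It stood at 2.50, 2.61 and 2.44 TPM in the young, 2.01, 2.07 and 1.91 TPM in the aged saline, and 1.75, 2.35 and 2.24 TPM in the aged GRP-E1F2 libraries. All libraries of the aged groups were below the young ones, yet no difference passed: -0.23 with age (adjusted p = 0.110), 0.05 with GRP-E1F2 (adjusted p = 0.730) and -0.18 between GRP-E1F2 and young (adjusted p = 0.136). The level of Flt1 was 4.49 to 5.97 times that of Kdr in each of the 9 libraries.

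Tek (NCBI gene 21687, chr4:94739086-94874976), which encodes the angiopoietin receptor TIE2, stood at 2.61, 2.85 and 2.91 TPM in the young, 3.29, 2.91 and 2.48 TPM in the aged saline, and 2.34, 2.77 and 2.74 TPM in the aged GRP-E1F2 libraries. All 3 groups overlapped. Its difference was 0.03 with age (95% interval -0.19 to 0.26, adjusted p = 0.839), -0.10 with GRP-E1F2 (adjusted p = 0.493) and -0.07 between GRP-E1F2 and young (adjusted p = 0.592).

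The last pair are transporters of drugs and organic anions. Abcb1a (NCBI gene 18671, chr5:8567091-8748575) encodes P-glycoprotein, the efflux pump of the side facing the blood. It stood at 6.41, 7.47 and 6.83 TPM in the young, 6.13, 5.71 and 6.08 TPM in the aged saline, and 5.84, 5.24 and 5.77 TPM in the aged GRP-E1F2 libraries. The libraries of both aged groups were below all young ones. Abcb1a fell by 0.25 between aged GRP-E1F2 and young (SE 0.0764, adjusted p = 0.0222), and differed by -0.18 with age (adjusted p = 0.134) and by -0.08 with GRP-E1F2 (adjusted p = 0.518). The fall missed the threshold without young 2 (adjusted p = 0.0854) or 3 (0.0645), without GRP-E1F2 2 (0.0661) or 3 (0.0543), with median-of-ratios scaling (0.0513), with quantile normalization (0.119) and with 2 libraries per group (0.242).

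Slco1a4 (NCBI gene 28250, chr6:141805438-141856284), which encodes the organic anion carrier OATP1A4, stood at 9.14, 10.6 and 10.2 TPM in the young, 11.1, 9.30 and 8.35 TPM in the aged saline, and 9.43, 10.9 and 10.3 TPM in the aged GRP-E1F2 libraries. Its groups overlapped in all comparisons. The differences were -0.06 with age (95% interval -0.29 to 0.18, adjusted p = 0.744), 0.09 with GRP-E1F2 (95% interval -0.15 to 0.32, adjusted p = 0.585) and 0.03 between GRP-E1F2 and young (adjusted p = 0.814). Reads shared with near-identical copies could have been split in an unknown way: Abcb1b stood at 0.396 to 0.736 TPM, and no library had more than 0.0614 TPM of Slco1a5 or 0.0210 TPM of Slco1a6.

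Counted over the members, 2 of 10 fell and 0 rose with age, where 11.2% of all tested genes fell and 5.48% rose. At an unadjusted p under 0.05 by the same limma fit, 5 members were lower with age and 0 higher, where 22.5% of all tested genes were lower. With GRP-E1F2, 1 of 10 rose and 0 fell, where 7.47% of all tested genes rose and 13.4% fell, and 1 member (Cldn5) was lower at an unadjusted p under 0.05 by limma, as were 20.8% of all tested genes. Between aged GRP-E1F2 and young, 4 of 10 fell and 0 rose, where 29.4% fell and 17.2% rose, and these 4 were also the only members with an unadjusted p under 0.05 by limma, where 33.5% of all tested genes were lower. The balance of all genes depended on the scaling: 2294 rose and 3910 fell between GRP-E1F2 and young as deposited, 2999 and 3090 after median-of-ratios scaling, and 3115 and 2978 after quantile normalization. With age 729 rose and 1488 fell as deposited, against 922 and 1014 and 966 and 1102 in that order, and with GRP-E1F2 994 and 1777, against 1288 and 1615 and 1466 and 1470. The median difference of the members was -0.20 with age against -0.05 over all tested genes, -0.09 against -0.02 with GRP-E1F2, and -0.21 against -0.07 between GRP-E1F2 and young. In 7 members (Cldn5, Pecam1, Slc2a1, Abcb1a, Flt1, Kdr and Mfsd2a) every aged saline library was below every young library, as was true of 26.8% of all tested genes. Of the GRP-E1F2 libraries, all lay below all aged saline libraries at Pecam1 and above them at Mfsd2a, as was true of 21.5% (below) and 14.9% (above) of all tested genes. They lay below all young libraries at 6 members (Cldn5, Pecam1, Abcb1a, Flt1, Kdr and Cdh5), and at 38.5% of all tested genes. With 2 libraries per group, 0 members passed in any comparison by limma, and 1, 0 and 1 were lower at an unadjusted p under 0.05 with age, with GRP-E1F2 and between GRP-E1F2 and young, where 6.49%, 9.61% and 19.2% of all tested genes were.

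**Figure D2:**
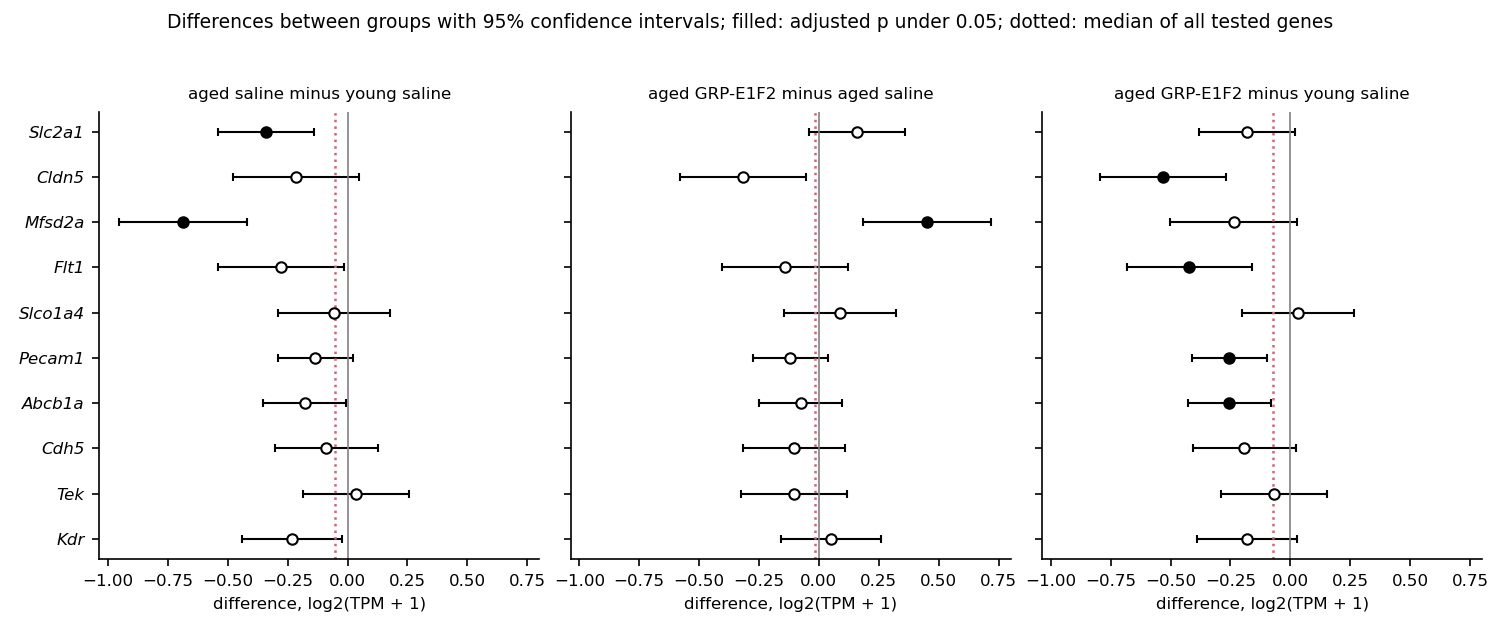
Difference of each member in the 3 comparisons on the log2(TPM + 1) scale (horizontal axis), with the 95% interval of the limma fit, filled where the adjusted p was under 0.05, and with a dotted line at the median of all tested genes. Mfsd2a lay at -0.69 with age and at 0.45 with GRP-E1F2, and Cldn5 at -0.53 between aged GRP-E1F2 and young.

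The members did not vary together in all libraries of the GRP-E1F2 group. GRP-E1F2 1 had the lowest level of that group at Cldn5, Pecam1, Flt1, Kdr, Tek and Slco1a4 and the highest at Slc2a1, Mfsd2a, Abcb1a and Cdh5. The ratio of Mfsd2a to Pecam1 was 2.04 to 2.09 in the young, 1.28 to 1.49 in the aged saline and 1.64 to 2.76 in the aged GRP-E1F2 libraries. The ratio of Slc2a1 to Cldn5 was 2.14, 1.22 and 1.56 in the GRP-E1F2 libraries, against 1.09 to 1.29 in the other 6. As a description over the 9 libraries, which share their groups, Slc2a1 followed Mfsd2a with a Pearson r of 0.954, and Cldn5 followed Pecam1 with 0.967.

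To set the members against the endothelium as a whole, each was expressed relative to the mean level of 18 other genes of endothelial identity, such as Tie1, Egfl7 and Erg. That mean was 2.83 to 2.87 in the young, 2.82 to 2.87 in the aged saline and 2.87 to 2.89 in the aged GRP-E1F2 libraries, as log2(TPM + 1). Relative to it, Mfsd2a was 0.67 lower (-0.67) and Slc2a1 0.32 lower (-0.32) in aged saline than in young libraries, and Cldn5, Pecam1, Abcb1a, Flt1 and Kdr also lay lower without overlap (-0.12 to -0.26). The exact permutation p was 0.1 for each of these 7, two-sided, the smallest that 3 libraries against 3 allow, so this design cannot reach 0.05. How many of all tested genes lie apart relative to this mean, or to the other references used below, was not computed. On the plain TPM scale, 26.8% of all tested genes lay lower with age without overlap. With GRP-E1F2, 21.5% lay lower and 14.9% higher. Cdh5 (-0.07, exact p = 0.5), Tek (0.05, exact p = 0.7) and Slco1a4 (-0.04, exact p = 0.9) overlapped. For GRP-E1F2 against aged saline, Mfsd2a lay higher (0.40) and Cldn5 (-0.36), Pecam1 (-0.17) and Abcb1a (-0.12) lower without overlap (exact permutation p = 0.1 each), and Slc2a1 (0.11, exact p = 0.4), Flt1 (-0.19, exact p = 0.3), Kdr (0.00, exact p = 1), Cdh5 (-0.15, exact p = 0.2), Tek (-0.15, exact p = 0.3) and Slco1a4 (0.04, exact p = 0.9) overlapped. The level of that mean with age leaned on Cd34, which rose. With Cd34 left out of it, a choice made after seeing the data, the mean of the other 17 was 2.77 to 2.84 in the young, 2.69 to 2.79 in the aged saline and 2.74 to 2.81 in the aged GRP-E1F2 libraries. Against these 17 genes Mfsd2a (-0.61), Slc2a1 (-0.26), Flt1 (-0.20), Kdr (-0.15) and Cldn5 (-0.14) still lay lower with age without overlap (exact permutation p = 0.1 each), while Pecam1 (-0.06, exact p = 0.2) and Abcb1a (-0.10, exact p = 0.2) overlapped. With GRP-E1F2, Mfsd2a (0.41), Cldn5 (-0.35) and Pecam1 (-0.16) did not overlap (exact p = 0.1 each), and Abcb1a did (-0.11, exact p = 0.2). Relative to Pecam1 alone, Mfsd2a differed by -0.55 with age and by 0.57 with GRP-E1F2, Kdr by -0.10 and 0.17, and Slc2a1 by -0.21 with age, all without overlap (exact permutation p = 0.1 each). The other members overlapped in both comparisons relative to Pecam1, as did Slc2a1 with GRP-E1F2 (0.28, exact p = 0.2).

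**Figure D3:**
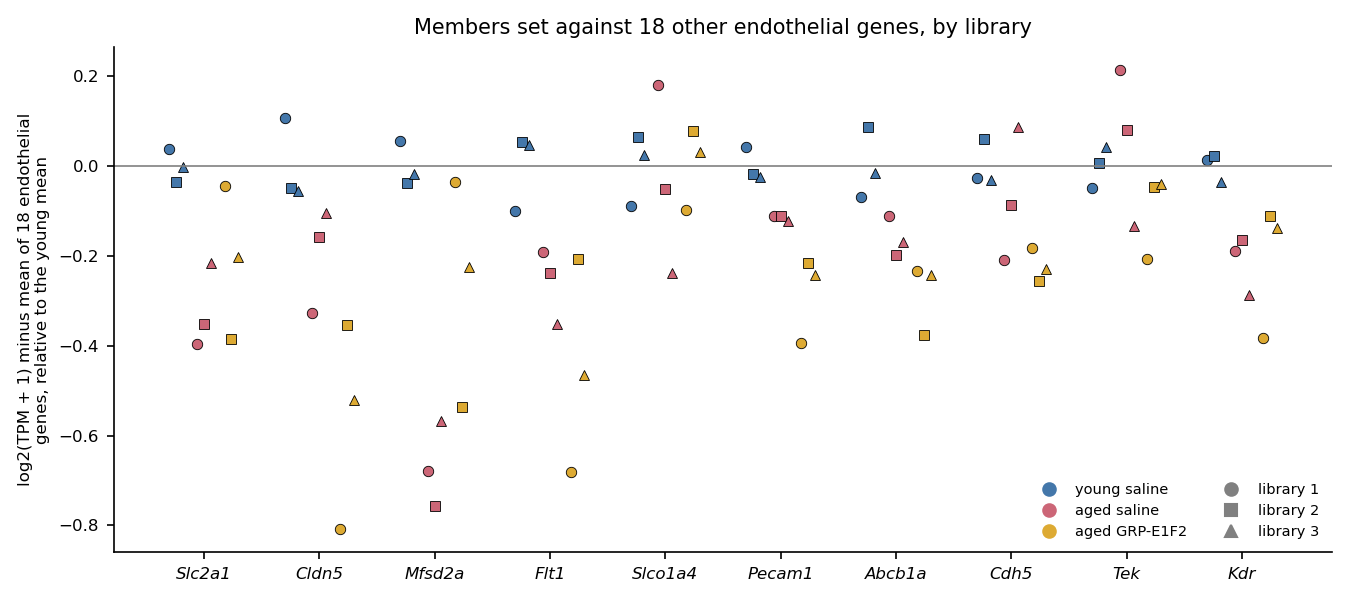
Level of each member minus the mean of 18 endothelial identity genes, on the log2(TPM + 1) scale and set to 0 at the young mean, with 1 point per library in the 3 groups. Relative to that mean the aged saline libraries lay lower than the young at Mfsd2a by 0.67 on average, and the GRP-E1F2 libraries lay higher than aged saline by 0.40.

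Other genes of the barrier were described in 6 lists of 83 genes in all, of which 78 were tested (Abcb1b, Flt4, Aplnr, Sele and Selp had means under 1 TPM). Of all tested genes, 5.48% rose and 11.2% fell with age, and 7.47% rose and 13.4% fell with GRP-E1F2. Of 11 junction proteins, 2 fell with age and 4 with GRP-E1F2, and 0 rose. The median differences were -0.10 and -0.16. Ocln, which encodes occludin, was 6.09 ± 0.523 TPM in the young, 4.12 ± 0.130 in the aged saline and 2.39 ± 0.256 in the aged GRP-E1F2 group (SD, n = 3), and fell in both comparisons (-0.47, adjusted p = 0.0118, and -0.60, adjusted p = 0.00175, both by limma). Marveld2, which encodes tricellulin of the junctions where 3 cells meet, fell with GRP-E1F2 from 2.08 ± 0.0991 to 0.559 ± 0.177 TPM (-0.99), and Ctnna1 fell (-0.24). F11r, named here after its values were seen, also fell with GRP-E1F2 (-0.50). These junction genes are also active in epithelia and neural cells.

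Of the 18 endothelial identity genes, 1 rose and 2 fell with age, and 0 passed with GRP-E1F2, where 1 had an unadjusted p under 0.05 by limma and 2 rose after quantile normalization. The median differences were -0.05 and 0.06. Of all 13301 tested genes, 4726 had an unadjusted p under 0.05 with GRP-E1F2 by limma, and 1466 rose after quantile normalization. Cd34 rose with age, from 11.6 ± 2.07 to 24.7 ± 7.50 TPM (1.00), while the ETS factor gene Erg (-0.32) and the surface protein gene Ly6c1 (-0.26) fell.

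Of 15 tested barrier transporters of 16 listed, 1 fell with age, and 2 rose and 1 fell with GRP-E1F2. Slc16a1, which encodes the lactate carrier MCT1, went from 25.2 ± 1.02 TPM in the young to 16.8 ± 1.22 in the aged saline and 11.9 ± 1.04 in the aged GRP-E1F2 group, and fell in both comparisons (-0.56, adjusted p = 0.00516, and -0.46, adjusted p = 0.0041, both by limma). Slco1c1, which encodes a carrier of thyroid hormone, rose with GRP-E1F2 from 16.4 ± 0.806 to 19.3 ± 0.614 TPM (0.23).

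Of 13 tested genes of VEGF and angiopoietin signalling of 15 listed, 3 fell with age, and 1 rose and 1 fell with GRP-E1F2. Among the ligands, Angpt1, which activates TIE2, fell with age from 2.49 ± 0.0625 to 1.25 ± 0.213 TPM (-0.63), as did Vegfb (-0.31) and Vegfc (-0.54). Vegfa, the ligand of both Flt1 and Kdr, was 82.1 ± 4.13 TPM in the young and 77.9 ± 7.75 in the aged saline group (adjusted p = 0.585) and fell with GRP-E1F2 to 49.8 ± 4.62 TPM (-0.64). Nrp2, a co-receptor, rose with GRP-E1F2 from 3.11 ± 0.618 to 6.69 ± 0.717 TPM (0.91).

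Of 14 genes of the Wnt pathway that maintains the barrier, 1 fell with age (Lrp5, a co-receptor, -0.29), and 2 rose and 2 fell with GRP-E1F2. The related ligand genes Wnt7a and Wnt7b moved in opposite directions with GRP-E1F2. Wnt7a fell from 20.5 ± 4.43 to 10.03 ± 1.02 TPM (-0.95), and Wnt7b rose from 12.7 ± 0.696 to 21.0 ± 4.83 TPM (0.66). The pathway effector Lef1 fell (-0.42) and the Wnt target and inhibitor Apcdd1 rose (0.21). Of 7 tested genes of transcytosis and leakage of 9 listed, Cavin1, a coat protein of caveolae, fell with age (-0.28). Plvap, which marks fenestrated and leaky vessels, fell with GRP-E1F2 from 10.3 ± 1.61 to 7.25 ± 0.739 TPM (-0.45).

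Between aged GRP-E1F2 and young, 5 of the 11 junction proteins fell and 0 rose, 3 of the 18 identity genes rose and 2 fell, 3 of the 15 transporters rose and 2 fell, 1 of the 13 VEGF and angiopoietin genes rose and 5 fell, 2 of the 14 Wnt genes rose and 7 fell, and 2 of the 7 transcytosis genes fell, where 29.4% of all tested genes fell and 17.2% rose. With 2 libraries per group, 2 junction, 1 transporter, 2 VEGF and angiopoietin and 1 Wnt gene fell in that comparison, and 0 identity and 0 transcytosis genes passed by limma (2 of each had an unadjusted p under 0.05). Of all 13301 tested genes, 1193 fell and 520 rose in that fit, and 4045 had an unadjusted p under 0.05 by limma. With 2 libraries per group, 0 genes of these 6 lists passed with age or with GRP-E1F2 by limma, and 0 to 2 genes per list with age and 0 to 3 with GRP-E1F2 had an unadjusted p under 0.05. Of all 13301 tested genes, 3 passed with age and 248 with GRP-E1F2, and 1431 and 1792 had an unadjusted p under 0.05 by limma. Leaving out any 1 library kept the calls of Angpt1 and Slc16a1 with age, and those of Marveld2, Ocln, Slc16a1, Vegfa, Nrp2, Wnt7a and Wnt7b with GRP-E1F2, and ended each of the other calls named from these lists at least once. Median-of-ratios scaling ended the calls of Ly6c1, Lrp5 and Cavin1 with age, and quantile normalization ended these and those of Lef1 and Plvap with GRP-E1F2.

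**Figure D4:**
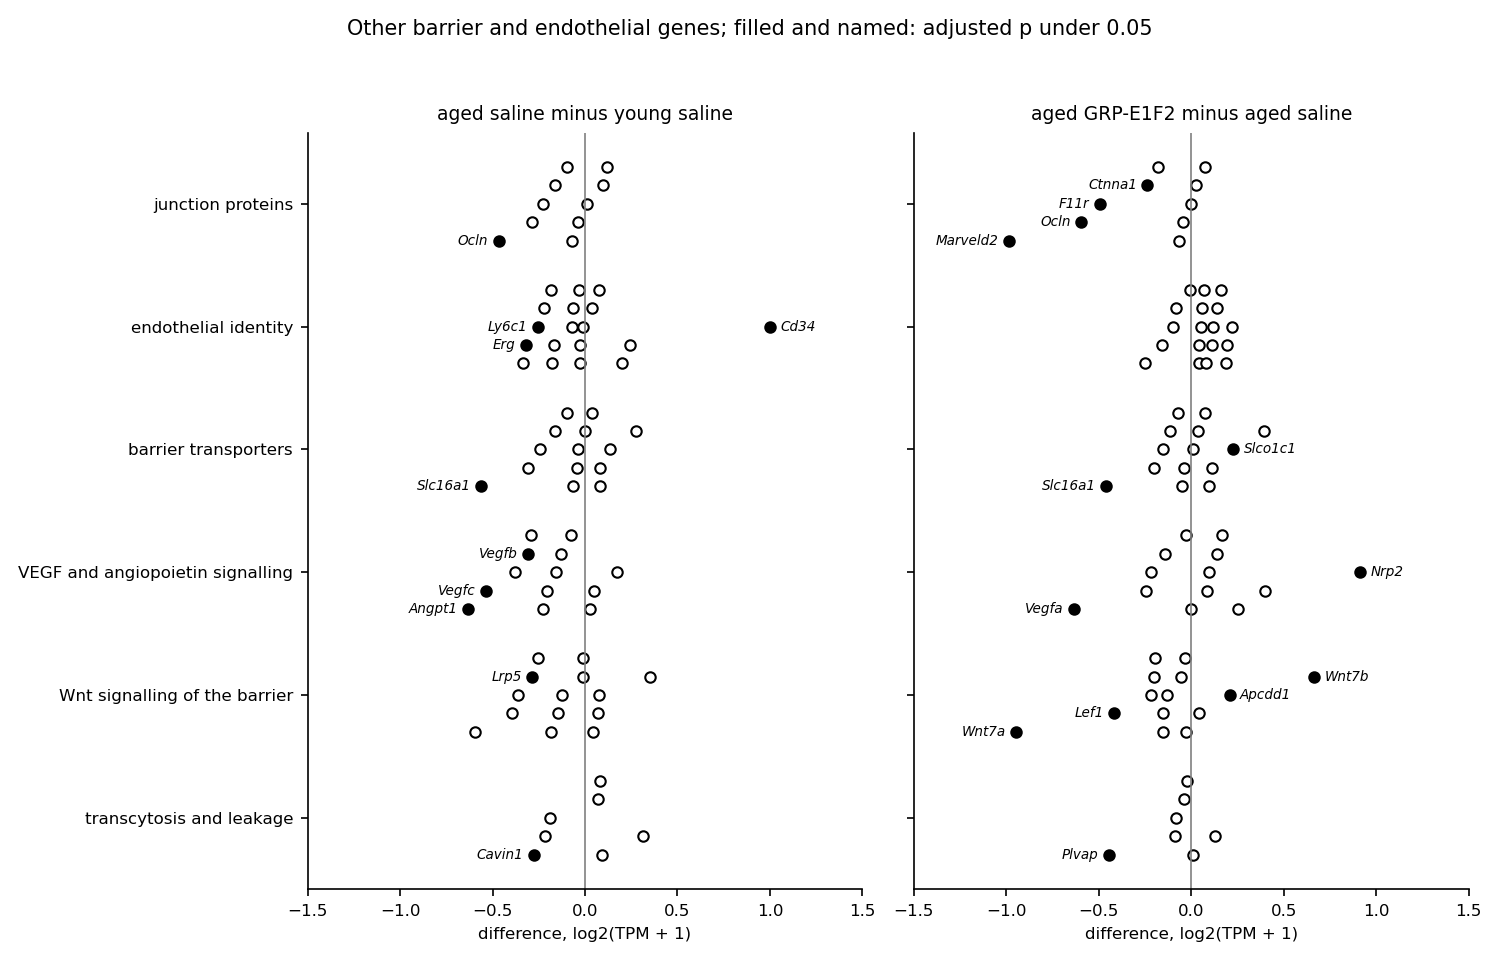
Difference of the tested genes of the 6 lists, without the genes not reported here, on the log2(TPM + 1) scale (horizontal axis), for aged saline minus young saline and for aged GRP-E1F2 minus aged saline, filled and named where the adjusted p was under 0.05. With GRP-E1F2 the junction genes Marveld2, Ocln, F11r and Ctnna1 lay below 0, while the 18 endothelial identity genes held no filled point.

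Marker levels of other cell types are given beside these results. The summed level of 10 pericyte markers was 167 to 181 TPM in the young, 152 to 166 TPM in the aged saline and 131 to 146 TPM in the aged GRP-E1F2 libraries, and all 10 were above 0 in every library, as were all markers of the next 5 lists. The sum of 6 fibroblast markers was 59.1 to 72.0, 26.1 to 36.5 and 23.1 to 29.0 TPM in the same order, that of 7 astrocyte markers 596 to 686, 466 to 496 and 367 to 408 TPM, and that of 5 smooth muscle markers 109 to 112, 99.1 to 114 and 106 to 120 TPM. That of 5 oligodendrocyte markers was 8667 to 9213, 5861 to 7076 and 5238 to 5478 TPM, and that of 6 microglia markers 98.2 to 119, 128 to 144 and 134 to 176 TPM. The most abundant markers lead such sums, and some markers went the other way. The means of the astrocyte marker Slc1a2 were 53.4, 69.0 and 82.5 TPM, and those of the fibroblast marker Pdgfra 3.29, 3.71 and 4.59 TPM. All other astrocyte and fibroblast markers and all oligodendrocyte markers had lower means in both aged groups than in the young, and all microglia markers higher means. In the same order of groups, the smooth muscle markers Tagln (22.9, 23.9 and 25.9 TPM) and Myl9 (60.8, 62.2 and 63.9 TPM) were higher in both aged groups. The pericyte markers Higd1b (20.5, 24.1 and 16.7 TPM) and Cspg4 (1.50, 1.38 and 1.68 TPM) differed in direction between them. The other smooth muscle and pericyte markers were lower in both. The sum of 5 anterior pituitary markers was 5.63 to 6.12 TPM in the young, 21.7 to 25.2 TPM in the aged saline, and 4.34, 834 and 428 TPM in GRP-E1F2 1, 2 and 3, the libraries with 15.3, 10.6 and 13.2 TPM of Mfsd2a. In GRP-E1F2 2 and 3 most of it was Prl (554 and 280 TPM) and Gh (263 and 137 TPM). Tshb, Lhb and Pomc were also lowest in GRP-E1F2 1 within that group. The part of these cells in the results on the members was not tested.

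The genes whose levels followed the mean of the 10 members most closely over the 9 libraries were Osbpl2 (Pearson r 0.997, Spearman rho 0.933), Cpq (0.991 and 0.883), Prune2 (0.990 and 0.933), Sparcl1 (0.989 and 0.95) and Wwtr1 (0.989 and 0.867). Sparcl1, a secreted matrix protein gene of astrocytes and vessels, stood at 964 ± 66.6 TPM in the young, 663 ± 25.7 in the aged saline and 639 ± 15.6 in the aged GRP-E1F2 group. Wwtr1, the gene of the transcriptional coactivator TAZ, stood at 4.87 ± 0.309, 3.21 ± 0.171 and 3.14 ± 0.411 TPM. These values describe likeness over 9 libraries that share their groups, and the genes were picked from all tested genes for it.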

How the data were processed

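Per the labels' protocols, libraries were made with the NEBNext Ultra II kit from 0.4 ug of total RNA, from fragmented mRNA and random primers. Build mm10 and the tools GATK, HISAT2, SAMtools 0.1.18 and Picard are named, with no roles, per the submitters' processing notes. The values deposited by the authors are TPM per gene and library. How they were computed, the annotation, and the handling of strand and shared reads were not given in the sources used here. Library sums were 999667 to 999929 TPM with 16715 to 16962 genes above 0. TPM keeps no depth, so no counting error is given.

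Of 22192 genes, 3809 were at 0 in every library. Genes averaging 1 TPM or more (13301) were fitted over all 9 libraries with limma 3.58.1 in R 4.3.3 (eBayes with trend) on log2(TPM + 1), which understates the change of low genes. P-values were adjusted by Benjamini-Hochberg over all tested genes, with a threshold of 0.05. Levels relative to 18 endothelial genes were compared by exact permutation tests. The fit was tested on simulated data with independent libraries, so that trial does not cover the in-between libraries seen here. Of 200 genes changed there, in equal numbers by 1 or by a smaller step, it called 92 and 54. It made 12 false calls.

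Alternatives were pseudocounts of 0.1 and 5 TPM, median-of-ratios scaling, quantile normalization, no filter or one at a mean of 5 TPM, a replicate block, a fit of only the groups compared, eBayes without trend, each library left out, and 2 libraries per group. Leaving Cd34 out of the endothelial reference was added after seeing the data. The text names all 10 members, the 3 genes of each list with the smallest p in a comparison (values are given for those that passed; some are not reported here but stay in the counts), the 5 genes most like the members' mean, markers and copies of members. The members and lists were chosen with earlier results of these data known. Positions and promoter windows are RefSeq's (GRCm38.p6).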

Additional observations from a re-analysis of the deposited data

How the results depend on the processing

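Of 561 alternative values for the members' differences, 516 kept direction and side of the threshold, 32 lost and 5 gained a call, and 8 changed sign. The largest effect was that of 2 libraries per group, which left 1 gene rising and 2 falling with age, 14 and 234 with GRP-E1F2, and 520 and 1193 between GRP-E1F2 and young, with 0 members called in each. That setting both leaves fewer libraries and drops the in-between library of each group, and which of these mattered was not tested. Median-of-ratios scaling left 1 member falling with age and 2 between GRP-E1F2 and young, quantile normalization left 1 falling in the latter, and a fit of only the groups compared left 0 rising with GRP-E1F2. The cause of these was not tested either.

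With single libraries left out, the genes that rose numbered 96 to 913 and those that fell 275 to 1722 with age, 329 to 1212 and 1016 to 1848 with GRP-E1F2, and 1680 to 2460 and 3028 to 4175 between GRP-E1F2 and young. The members that fell numbered 0 to 3, 0 to 1 and 2 to 6 in the same order, and those that rose 0 to 0, 0 to 1 and 0 to 0.

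Among the members, the sign changed only for uncalled differences near 0. With single libraries left out, Slco1a4 with age ran from -0.156 to 0.0298 (turned without aged saline 3), Tek with age from -0.0379 to 0.112 (turned without aged saline 1, and to -0.00023 without young 1), Kdr with GRP-E1F2 from -0.00355 to 0.138 (turned without GRP-E1F2 2), and Slco1a4 between GRP-E1F2 and young from -0.0217 to 0.0838 (turned without young 1, and to -0.00865 without GRP-E1F2 2). After quantile normalization, Slco1a4 with age was 0.00193 and Tek between GRP-E1F2 and young 0.0588.

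Same-numbered libraries did not stand out as alike: the correlation of their deviations ran from -0.0549 to 0.126 over 9 pairs, 1 of them over 0.1. For libraries of different number it ran from -0.134 to 0.123. Whether libraries of 1 number shared a processing step was not tested. With the replicate block, 2055, 2589 and 5944 genes were called in the comparisons, against 2217, 2771 and 6204 without it. TPM gives no depth, so what depth limits could not be computed.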
